A study of Mus musculus with 6 samples.

Results

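Dermal fibroblasts were examined for 10 genes of the smooth muscle contractile apparatus: the actins Acta2 and Actg2, the actin-binding proteins Tagln, Cnn1, Tpm1, Tpm2 and Lmod1, the myosin chains Myh11 and Myl9, and the intermediate filament gene Des. They were chosen by name as contractile genes of smooth muscle and myofibroblasts, with earlier results of these data known. All 10 had 1 single-gene probe set each, out of 22180 genes measured. The fibroblasts were sorted from ventral skin of female mice aged 8 to 12 weeks, on a C57BL/6 background, and each sample was measured on 1 microarray as log2 values. The KrP group (3 samples) came from K14-PTHrP transgenic mice, which express parathyroid hormone-related protein in basal keratinocytes from the keratin 14 promoter, and whose ventral skin is labelled nipple-like. The WT group (3 samples) came from littermates without the transgene, and its skin is labelled telogen, a hair cycle phase that the KrP labels do not name. Both groups were sorted alike for viable CD140-positive cells negative for CD31, CD45, CD117 and CD49f. The labels say that cells were pooled for sorting from 3 mice without saying whether this means each sample or each genotype, so the p-values speak only for the scatter among these 6 samples, part of which may be technical. The comparison asks how contractile gene expression differs between fibroblasts of nipple-like and normal ventral skin.

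Smooth muscle contracts when myosin light chain is phosphorylated and myosin slides along actin filaments, with tropomyosin, calponin and transgelin lying along the actin. Fibroblasts that assemble smooth muscle actin into stress fibres are called myofibroblasts, and skin also holds contractile cells in vessel walls, arrector pili muscles and the dermal sheath. The nipple has smooth muscle of its own. Many of these genes are driven by serum response factor (SRF), which binds the CArG box, together with cofactors of the myocardin family. CD140 is a name of the PDGF receptors, and pericytes and vascular smooth muscle are known to carry Pdgfrb. Which of the receptors the sort took is not stated here.

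The arrays had medians between 6.34 and 6.43 on the log2 scale. Pdgfra, which encodes CD140a, averaged 13.47 ± 0.06 in KrP and 13.23 ± 0.10 in WT samples (SD, n = 3 each), and Pdgfrb 12.76 ± 0.36 and 12.33 ± 0.43. As a guide to background, the 95th percentile of the mean values of 1105 olfactory receptor genes was 6.28. Of the genes behind the negative gate, Ptprc (CD45) averaged 4.65 ± 0.30 and 4.85 ± 0.30, Kit (CD117) 6.18 ± 0.04 and 6.23 ± 0.27, Pecam1 (CD31) 6.68 ± 0.09 and 6.73 ± 0.35, and Itga6 (CD49f) 7.55 ± 0.92 and 7.41 ± 0.43. Pecam1 and Itga6 lay above the guide in 6 of 6 samples. Pth1r, the receptor of the hormone, averaged 7.50 ± 0.28 and 7.41 ± 0.13. Pthlh, the gene of the transgenic hormone, was not analysed here, so the genotype labels have no direct check in these values. One sample stood apart for markers of epithelium: the mean log2 value over 19 keratinocyte and myoepithelial markers was 7.34 in WT 2, against 6.34 to 6.55 in the KrP samples and 6.49 and 6.51 in the other WT samples.

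None of the 10 genes passed the test between KrP and WT samples. The test was limma with Benjamini-Hochberg adjustment over all genes, which called 2.18% of genes at an adjusted p under 0.05 (1.15% higher and 1.03% lower in KrP samples). At an unadjusted p under 0.05, 3 of the 10 were higher in KrP samples (Acta2, Tpm2 and Myl9) and 0 were lower, where 9.44% and 6.56% of all genes were. The KrP mean was higher for 7 of the 10 and lower for 3, and the median log2 fold change was 0.26, against 0.0067 over all genes. Samples of the 2 groups share the replicate numbers 1 to 3. Deviations from the group means correlated by 0.414 and 0.35 for the samples numbered 1 and 2, but by only 0.12 for those numbered 3. Between differently numbered samples they correlated by -0.385 to 0.067. With the replicate number as a block, 1 of the 10 passed as higher, Acta2, and 0 as lower. Over all genes 8.35% passed with the block (5.33% higher and 3.02% lower). With array weights, which count KrP 3 most, 6 passed as higher and 0 as lower, where 28.9% of all genes did (16.9% and 12.0%). Since sorted cells were measured in bulk, a change in the number of contractile cells and a change in RNA per cell cannot be told apart.

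**Figure D1:**
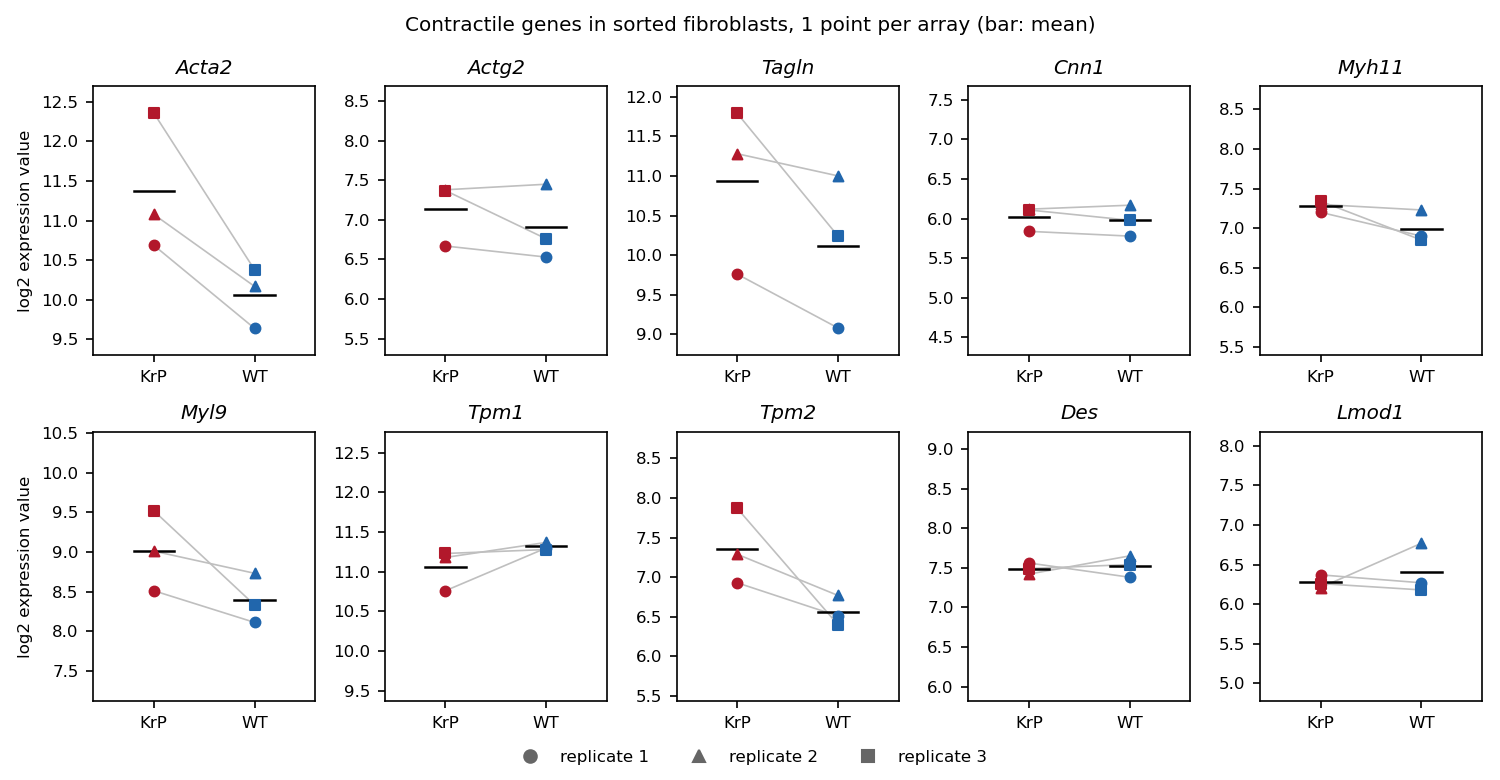
Log2 expression values of the 10 contractile genes (vertical axis, the same span in each panel) in KrP samples (left, red) and WT samples (right, blue), 1 point per array; grey lines join samples with the same replicate number and black bars are group means (n = 3). Acta2 and Tpm2 lie higher in each KrP sample than in any WT sample, Tpm1 lies lower, and the other 7 genes overlap between the groups.

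Promoter sequences are shown for the actin gene with the largest difference, for the myosin light chain gene that correlated with it, and for the tropomyosin gene that lay lower in KrP samples, because SRF is known to act on many contractile genes. Each runs over the 250 bases upstream of the RefSeq start site (GRCm38.p6), 5′ to 3′ on the gene's strand. They lie for Acta2 at chr19:34255374-34255623 (minus strand), for Myl9 at chr2:156775214-156775463 (plus strand) and for Tpm1 at chr9:67049214-67049463 (minus strand). Capitals mark stretches of 10 bases that match the CArG box or differ from it by 1 letter.
Acta2: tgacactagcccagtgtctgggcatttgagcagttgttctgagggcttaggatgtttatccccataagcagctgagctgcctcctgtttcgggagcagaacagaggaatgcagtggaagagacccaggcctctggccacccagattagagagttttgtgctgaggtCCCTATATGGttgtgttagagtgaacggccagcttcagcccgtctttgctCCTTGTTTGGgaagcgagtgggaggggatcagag
Myl9: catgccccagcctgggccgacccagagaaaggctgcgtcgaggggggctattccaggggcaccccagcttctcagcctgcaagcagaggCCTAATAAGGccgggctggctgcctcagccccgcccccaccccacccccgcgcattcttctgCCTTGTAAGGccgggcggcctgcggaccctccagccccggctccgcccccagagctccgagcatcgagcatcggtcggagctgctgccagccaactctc
Tpm1: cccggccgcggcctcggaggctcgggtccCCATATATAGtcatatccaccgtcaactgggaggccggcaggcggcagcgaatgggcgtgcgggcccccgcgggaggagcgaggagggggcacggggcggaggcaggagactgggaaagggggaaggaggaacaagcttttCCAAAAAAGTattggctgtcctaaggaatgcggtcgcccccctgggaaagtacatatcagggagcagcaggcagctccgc

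The CArG box is 2 C, then 6 letters that are each A or T, then 2 G. It reads alike on both strands and in full occurred in 1.47% of the 32851 mouse promoters of this length. Of the 10 contractile genes, 7 had a promoter in the table, and Actg2, Tagln and Myh11 did not. Among these 7, Myl9 alone held a full box, CCTAATAAGG, starting 161 bases upstream of the start site. With at most 1 letter off, 18.6% of all promoters and 4 of the 7 contractile genes had a match, namely Acta2, Myl9, Tpm1 and Lmod1. In Acta2 these were CCCTATATGG at 84 and CCTTGTTTGG at 34 bases upstream. In Tpm1, the gene with lower KrP values, they were CCATATATAG at 221 and CCAAAAAAGT at 80. Tpm2, with higher KrP values, had no such letters in this window, nor had Cnn1 or Des. Their promoters and that of Lmod1 are not shown. Tpm2 correlated with Acta2 over the 6 arrays as Myl9 did (Pearson's r 0.93 for both). The motif CATTCC, the site of TEAD factors, searched on both strands, occurred in 12.6% of all promoters and in those of Acta2, Tpm1 and Lmod1. A match of letters is a description and not a measured binding site.

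Acta2 encodes alpha smooth muscle actin, the usual marker of myofibroblasts. Its log2 values were 10.69, 11.08 and 12.36 in KrP samples 1 to 3, against 9.64, 10.17 and 10.38 in WT samples 1 to 3. Every KrP sample lay above every WT sample, as held for 11.4% of all genes, and KrP 3 lay highest. The means were 11.38 ± 0.87 in KrP and 10.06 ± 0.38 in WT samples (SD, n = 3 each), a log2 fold change of 1.31 ± 0.40 SE (2.49-fold). The 95% confidence interval ran from 0.40 to 2.23, and the limma adjusted p was 0.154, or 0.0138 with the replicate block. Between same-numbered samples the difference was 1.05, 0.91 and 1.98, so that the third pair differed most. The call with the block ended without any 1 of the 3 pairs. Over all genes, such fits called 0 without the samples numbered 1 or 3, and 903 without those numbered 2. Where 0 genes were called, the lost call was not particular to Acta2. Without KrP 3, the fit with no block gave 0.82 (adjusted p = 0.309). Refitted with 2 pairs and the block, the log2 fold change was 0.98 without both samples numbered 3 (adjusted p = 0.164), 1.45 without those numbered 1 (0.134) and 1.51 without those numbered 2 (0.0622).

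Actg2 encodes gamma smooth muscle actin, typical of visceral smooth muscle. It read 6.67, 7.38 and 7.37 in KrP samples and 6.53, 7.45 and 6.76 in WT samples. The groups overlapped, and samples numbered 1 were lowest in both. Its log2 fold change was 0.23 ± 0.27 (95% interval -0.40 to 0.86, adjusted p = 0.763). Leaving out 1 sample at a time gave values from 0.035 (without WT 1) to 0.49 (without WT 2). Smooth muscle actins are close in sequence, so probe signal can be shared between them. The skeletal actin Acta1 averaged 7.53 ± 0.17 in KrP and 7.57 ± 0.33 in WT samples, and the cardiac actin Actc1 averaged 5.63 ± 0.06 and 5.79 ± 0.12, below the olfactory receptor guide.

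Tagln encodes transgelin (SM22), an actin-binding protein of smooth muscle and of activated fibroblasts. Its log2 values were 9.76, 11.28 and 11.79 in KrP samples, against 9.08, 11.00 and 10.24 in WT samples. KrP 3 was highest and WT 1 lowest, but KrP 1 lay below WT 2 and WT 3, so the groups overlapped. The log2 fold change was 0.84 ± 0.59 (95% interval -0.52 to 2.19, adjusted p = 0.551, or 0.0695 with the block). Its SD within groups, 1.01 log2 units, lay at the 99.9 percentile of all genes. Without WT 1 the log2 fold change was 0.32, without KrP 3 0.41, without WT 2 1.28 and without KrP 1 1.43. In the same-numbered pairs Tagln was higher in KrP samples by 0.68, 0.28 and 1.55. In each group the sample numbered 1 was lowest.

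Cnn1 encodes basic calponin, a late marker of differentiated smooth muscle. It lay below the guide to background, with 5.84, 6.12 and 6.11 in KrP samples and 5.78, 6.17 and 5.98 in WT samples, and all 6 values lay below 6.28. Its log2 fold change of 0.047 ± 0.14 (adjusted p = 0.916) thus compares values at background. Lmod1 encodes leiomodin 1, a nucleator of actin filaments in smooth muscle, and it also lay near background. It read 6.37, 6.21 and 6.26 in KrP samples and 6.27, 6.77 and 6.18 in WT samples. The value of WT 2, the sample with the high epithelial markers, stood above the other 5. Between the group means the difference was -0.13 ± 0.16 (adjusted p = 0.781), or 0.055 without WT 2.

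The tropomyosin genes, whose products cover the myosin-binding sites of actin, had KrP means on opposite sides of the WT means. Tpm2, the beta tropomyosin gene, read 6.93, 7.29 and 7.87 in KrP samples, against 6.51, 6.77 and 6.40 in WT samples. All KrP samples lay above all WT samples, with KrP 3 highest. KrP samples exceeded WT samples by a log2 fold change of 0.80 ± 0.23 (1.75-fold; 95% interval 0.28 to 1.33, adjusted p = 0.137, or 0.0646 with the block). Tpm1, the alpha tropomyosin gene, which many cell types express, read 10.76, 11.18 and 11.23 in KrP samples, against 11.30, 11.37 and 11.28 in WT samples. Here all KrP samples lay below all WT samples, as held for 8.93% of all genes, with KrP 1 lowest and KrP 3 only 0.05 below WT 3. The log2 fold change was -0.26 ± 0.13 (95% interval -0.57 to 0.05, adjusted p = 0.399). Without KrP replicate 1 it was -0.11. The probe set of each gene covers no stated isoform, so smooth muscle and cytoplasmic tropomyosin transcripts of the same gene were not separated.

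Myl9 encodes the regulatory light chain of smooth muscle myosin, the part that is phosphorylated to start contraction. Its log2 values were 8.51, 9.01 and 9.52 in KrP samples and 8.11, 8.73 and 8.33 in WT samples. As for Acta2, the third pair differed most, with KrP higher by 0.40, 0.28 and 1.19, but KrP 1 lay below WT 2. Its log2 fold change was 0.62 ± 0.26 (1.54-fold; 95% interval 0.02 to 1.23, adjusted p = 0.299, or 0.0941 with the block), and it was 0.37 without KrP 3. Myh11, the smooth muscle myosin heavy chain and a marker of mature smooth muscle, read 7.20, 7.30 and 7.34 in KrP samples and 6.90, 7.23 and 6.85 in WT samples. Only WT 2 reached into the KrP range. Its log2 fold change was 0.29 ± 0.13 (95% interval -0.02 to 0.59, adjusted p = 0.346, or 0.212 with the block).

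Des encodes desmin, the intermediate filament protein of muscle. Its SD within groups was lowest of the 10, with log2 values of 7.56, 7.42 and 7.49 in KrP samples and 7.38, 7.65 and 7.54 in WT samples. The groups overlapped, and the log2 fold change was -0.03 ± 0.12 (95% interval -0.31 to 0.24, adjusted p = 0.934). A second probe set shared by Des and the predicted gene Gm15179 read 5.80, 6.00 and 6.34 in KrP samples and 6.19, 5.90 and 6.13 in WT samples, and was not used.

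**Figure D2:**
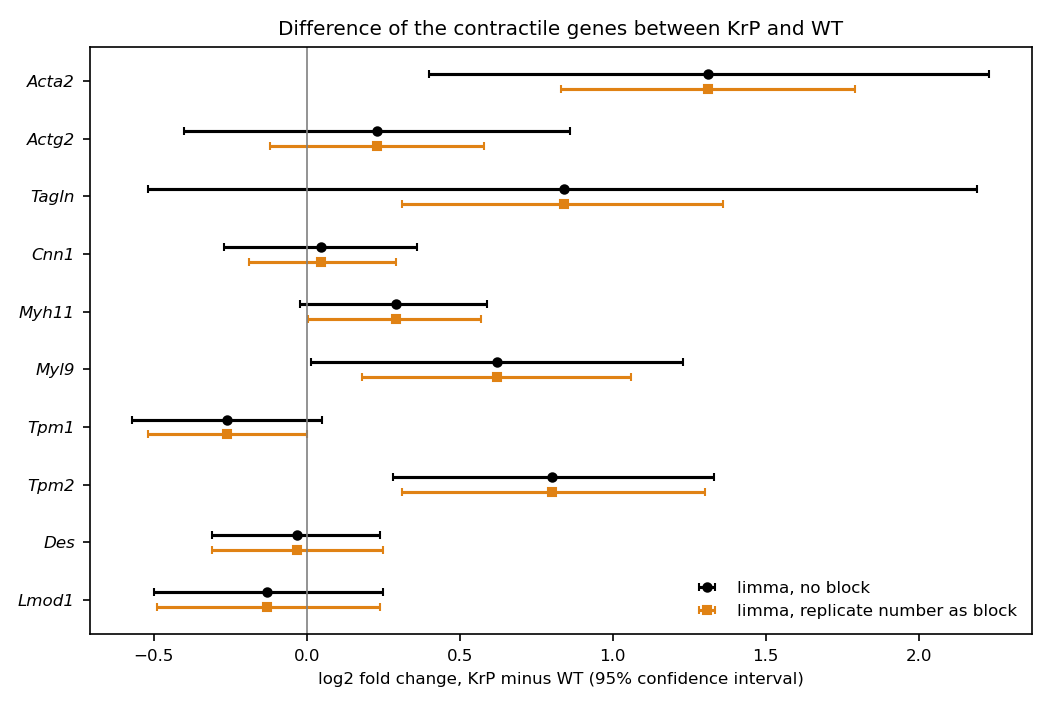
Log2 fold change (KrP minus WT, horizontal axis) of each contractile gene with its 95% confidence interval from limma, without a block (black circles) and with the replicate number as a block (orange squares). Acta2 has the largest value, 1.31, and its interval spans 0.40 to 2.23 without the block and 0.83 to 1.79 with it; the intervals of Actg2, Cnn1, Tpm1, Des and Lmod1 span 0 in both fits.

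In all, 5 of the 10 genes were higher in KrP samples in 3 of 3 same-numbered pairs (Acta2, Tagln, Myh11, Myl9 and Tpm2), where 23.4% of all genes were. Tpm1 alone was lower in all 3, where 20.4% were. Acta2 and Tpm2, 2 of the 10, did not overlap between groups with KrP above, beside the background of 11.4%.

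Correlations among the 10 genes over the arrays were uneven, with r of at least 0.7 for 17 of 45 pairs and below 0 for 8. The SD within groups lay above the 90th percentile of all genes for 5 of the 10: Tagln, Acta2 (0.67 log2 units, 99.3 percentile), Actg2 (0.44, 96.2), Myl9 (0.42, 95.3) and Tpm2 (0.36, 92.2). Des lay at the 22.2 percentile and Myh11 at 45.1. Over the 6 arrays, Pearson's r was 0.93 between Acta2 and Myl9 (Spearman's rho 0.83), 0.93 between Acta2 and Tpm2 (0.83) and 0.95 between Myl9 and Tpm2 (0.89). Tagln gave 0.93 with Myl9 (rho 0.94), 0.93 with Actg2 (0.77) and 0.79 with Acta2 (0.77). Lower values were found for Actg2 with Acta2 (0.56, rho 0.31) and with Tpm2 (0.64, rho 0.37). Cnn1, though below the guide to background, gave 0.97 with Actg2 (rho 1.00). Taking each sample's deviation from its own group mean, Acta2 and Myl9 gave 0.86 and Tagln and Myl9 0.94. Left without KrP 3, Acta2 and Myl9 gave 0.79 over 5 arrays. Tpm1 correlated with Acta2 at -0.17 over the 6 arrays and at 0.68 in deviations from group means. These values are descriptions over arrays that also share their replicate numbers. KrP 3 had the highest value for 5 of the 10 genes and WT 2 for the other 5, while WT 1 had the lowest for 6.

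**Figure D3:**
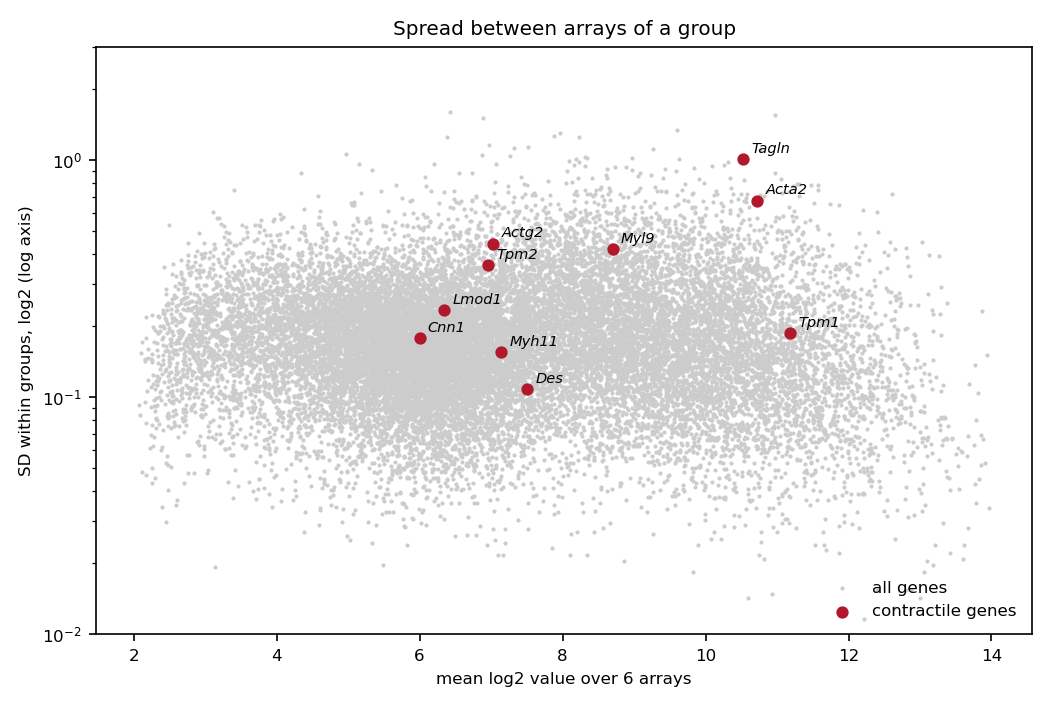
SD within groups of each gene (vertical, log axis, log2 units) against its mean log2 value over the 6 arrays (horizontal), with all 22180 genes in grey and the contractile genes in red. Tagln (1.01) and Acta2 (0.67) lie at the upper edge of the cloud and Des (0.11) in its lower part.

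The genes most like the mean of the 10 were searched among 2171 other genes that lay above the olfactory receptor guide and had a range of at least 1 log2 unit. Over the 6 arrays, the 8 with the highest Pearson correlation to that mean were Dlgap1 (0.98), Cnn2 (0.97), Lmcd1 (0.97), Tgfb1i1 (0.97), Gpt2 (0.96), Csrp1 (0.96), Gm1976 (0.95) and Gys1 (0.94). Spearman's rho was 1.00 for each except Gpt2 (0.89). Without KrP 3 and WT 1, the arrays farthest from the median of the mean, r lay between 0.72 (Gys1) and 1.00 (Lmcd1). Cnn2, a calponin found beyond muscle, read 10.18, 11.34 and 11.47 in KrP samples and 9.53, 10.77 and 9.93 in WT samples (a difference of 0.92 ± 0.40, adjusted p = 0.308; blocked, 0.0335). Csrp1, a LIM protein of smooth muscle, read 10.97, 11.82 and 11.86 in KrP samples and 10.28, 11.48 and 10.89 in WT samples (0.67 ± 0.33, adjusted p = 0.373; blocked, 0.0253). Tgfb1i1, a focal adhesion LIM protein also called Hic-5, read 10.30, 10.67 and 10.95 in KrP samples and 9.83, 10.35 and 10.06 in WT samples (0.56 ± 0.19, adjusted p = 0.206; blocked, 0.0438). None of the 8 passed limma without the block. Since the 8 were chosen for their likeness to the 10-gene mean over these same samples, their order over samples and their differences between the groups are descriptions and no separate evidence.

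**Figure D4:**
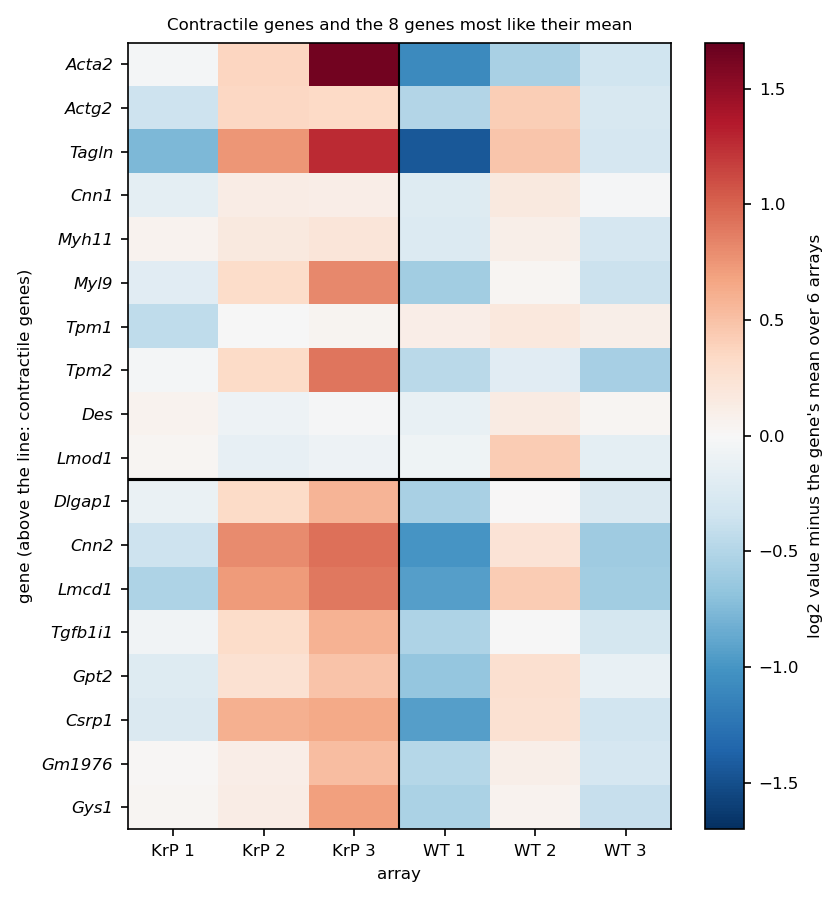
Log2 value minus the gene's mean over the 6 arrays (colour; red above, blue below) for the 10 contractile genes and, under the line, the 8 genes most like their mean; columns are KrP samples 1 to 3 and WT samples 1 to 3. KrP 3 is the reddest column for Acta2, Tagln, Myl9 and Tpm2 and WT 1 the bluest for Acta2, Tagln and Myl9, while Des and Cnn1 stay pale.

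Further genes of the contractile pathway, 134 over 5 lists, gave 4 calls (3 higher and 1 lower in KrP samples), where 2.18% of all genes passed. Of 30 measured further smooth muscle cytoskeletal genes, 1 rose, 0 fell and 29 did not pass, where 1.15% of all genes rose. Unadjusted, 4 of the 30 were higher and 1 lower at p under 0.05, where 9.44% and 6.56% of all genes were. With the block 4 of the 30 rose, where 5.33% of all genes did, and the median log2 fold change was 0.11. The riser was Lpp, a focal adhesion protein abundant in smooth muscle, at 10.08, 10.23 and 10.20 in KrP samples against 9.58, 9.62 and 9.60 in WT samples (log2 fold change 0.57 ± 0.10, adjusted p = 0.0374). Its call ended without KrP 3, WT 1, WT 2 or WT 3 (adjusted p from 0.0926 to 0.221) and with its probe sets averaged (0.335). Mylk, the kinase that phosphorylates the light chain, averaged 5.86 ± 0.13 in KrP and 6.12 ± 0.17 in WT samples, both means below the guide to background, and did not pass (-0.26 ± 0.13, adjusted p = 0.364). The smooth muscle cytoskeletal protein smoothelin (Smtn) averaged 9.54 ± 0.55 and 10.00 ± 0.02 (-0.46 ± 0.24, adjusted p = 0.408), with KrP 1 lowest at 8.93. Caldesmon (Cald1), which binds actin and myosin, averaged 11.70 ± 0.12 and 11.55 ± 0.26 (0.15 ± 0.14, adjusted p = 0.674).

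Actin and myosin genes that most cells use gave no call. Of 27 measured, 0 rose and 0 fell (limma; unadjusted, 2 were higher and 1 lower at p under 0.05; blocked, 2 rose and 1 fell), with a median log2 fold change of 0.083. Over all genes, 9.44% were higher and 6.56% lower unadjusted, and 5.33% rose and 3.02% fell with the block. Beta actin (Actb) averaged 12.14 ± 0.15 in KrP and 12.17 ± 0.11 in WT samples, gamma actin (Actg1) 12.16 ± 0.15 and 12.23 ± 0.27, and non-muscle myosin heavy chain Myh9 12.32 ± 0.31 and 12.33 ± 0.17. Their log2 fold changes were -0.03, -0.07 and -0.0033, and their limma adjusted p were 0.928, 0.872 and 0.993. The 95% intervals of these log2 fold changes ran from -0.26 to 0.20, from -0.40 to 0.26 and from -0.37 to 0.36.

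The SRF and myocardin family list also gave no call: of 23 measured genes 0 rose and 0 fell (3 higher and 2 lower at an unadjusted p under 0.05, 1 and 2 with the block), and the median was 0.067. Over all genes, 9.44% were higher and 6.56% lower unadjusted, and 5.33% rose and 3.02% fell with the block. Srf itself read 10.14, 11.83 and 11.58 in KrP samples and 10.64, 11.91 and 11.54 in WT samples. The sample numbered 1 was lowest in each group, as for Tagln, and the groups overlapped (log2 fold change -0.18 ± 0.46, adjusted p = 0.90). Myocardin (Myocd), the muscle cofactor of SRF, read 6.58, 6.62 and 6.74 in KrP samples and 6.38, 6.53 and 6.41 in WT samples, close to background (0.21 ± 0.11, adjusted p = 0.393). The actin-regulated cofactors Mrtfa and Mrtfb had log2 fold changes of 0.37 ± 0.18 (adjusted p = 0.369) and 0.32 ± 0.13 (0.296). Of 22 genes that set myosin light chain phosphorylation, 0 rose and 0 fell, with a median of 0.025. Unadjusted, 5 of the 22 were higher and 5 lower at p under 0.05, where 9.44% and 6.56% of all genes were. With the block 2 rose and 1 fell, where 5.33% and 3.02% did.

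Myofibroblast matrix and activation genes gave calls in both directions. Of 35 measured, 2 rose, 1 fell and 32 did not pass, where 1.15% of all genes rose and 1.03% fell. Unadjusted, 9 were higher and 4 lower at p under 0.05, where 9.44% and 6.56% of all genes were. With the block 8 rose and 4 fell, where 5.33% and 3.02% of all genes did, and the median was 0.03. Tgfb1, the cytokine best known for inducing Acta2 in fibroblasts, fell, with 10.41, 10.94 and 10.74 in KrP samples against 11.63, 12.05 and 11.68 in WT samples. All KrP samples lay below all WT samples (log2 fold change -1.09 ± 0.16, adjusted p = 0.0175). That call ended without KrP 3, WT 2 or WT 3 (adjusted p from 0.053 to 0.104). Cdh11, a cadherin of mesenchymal cells and myofibroblasts, rose by 0.59 ± 0.11 on the log2 scale (adjusted p = 0.0346), and Thbs2, a matricellular thrombospondin, by 0.30 ± 0.06 (0.04996). Leaving out samples one at a time ended the call of Cdh11 for KrP 3 and each WT sample (adjusted p from 0.0558 to 0.164) and that of Thbs2 for all 6 (0.0628 to 0.18). Without the variance trend the adjusted p was 0.0657 for Cdh11 and 0.203 for Thbs2, and that of Thbs2 was 0.0712 with a robust prior and 0.055 with averaged probe sets. Periostin (Postn), a matrix protein of activated fibroblasts, read 12.84, 12.67 and 13.05 in KrP samples and 11.85, 12.48 and 12.42 in WT samples (0.60 ± 0.17, adjusted p = 0.137, or 0.0483 with the block). All KrP samples lay above all WT samples for Postn, as for Acta2.

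Few markers of other contractile cells passed. Of 21 mural cell (pericyte and vascular smooth muscle) markers, 1 rose, 1 fell and 19 did not pass, where 1.15% of all genes rose and 1.03% fell. With the block 1 rose and 1 fell, where 5.33% and 3.02% did. Unadjusted, 1 was higher and 1 lower at p under 0.05, where 9.44% and 6.56% were. Their median log2 fold change was -0.01. Their mean log2 level ran from 6.73 to 6.92 in KrP and from 6.77 to 6.88 in WT samples. Cspg4, the NG2 proteoglycan of pericytes, fell, at 7.12, 7.83 and 7.55 in KrP samples against 8.46, 8.75 and 8.58 in WT samples (log2 fold change -1.10 ± 0.19, adjusted p = 0.0298). Rgs4, a regulator of G protein signalling, rose by 0.81 ± 0.16 on the log2 scale (adjusted p = 0.0492). Both calls ended without KrP 3, WT 1, WT 2 or WT 3 (adjusted p from 0.0704 to 0.148 for Cspg4 and from 0.109 to 0.196 for Rgs4). The call of Rgs4 also ended without KrP 1 (0.0527), without the variance trend (0.0546), with quantile normalisation (0.0532) and with median centring (0.0557). Rgs5, a defining pericyte gene, averaged 5.30 ± 0.02 in KrP and 5.17 ± 0.23 in WT samples, below the olfactory receptor guide in all 6 samples, and the means over all 6 samples of Higd1b, Rgs4, Olfr558 and Map3k7cl also lay at or below it. Mcam averaged 6.70 ± 0.01 and 6.87 ± 0.04, Notch3 6.70 ± 0.03 and 6.67 ± 0.09, Kcnj8 6.46 ± 0.27 and 6.52 ± 0.11, and Abcc9 7.58 ± 0.40 and 7.40 ± 0.31. The part of mural cells in the Acta2 values was not tested beyond these levels.

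Of 12 arrector pili and dermal sheath markers, which include 4 of the 10 contractile genes, 0 rose and 1 fell, where 1.15% and 1.03% of all genes did. Unadjusted, 1 was higher and 2 lower at p under 0.05, where 9.44% and 6.56% of all genes were. With the block 1 rose (Acta2) and 2 fell (Stmn2 and Tnn), where 5.33% and 3.02% did. The gene that fell without the block was Stmn2, which encodes a stathmin (log2 fold change -0.88 ± 0.13, adjusted p = 0.0188; the call ended without KrP 3, WT 1, WT 2 or WT 3, 0.0547 to 0.129). Itga8, an integrin chain of arrector pili muscle, averaged 7.09 ± 0.12 in KrP and 7.33 ± 0.44 in WT samples. None of 25 skeletal muscle markers passed limma (1 at an unadjusted p under 0.05, 0 with the block), 11 lay at or below the guide, and their mean level ran from 6.39 to 6.49 in KrP and from 6.38 to 6.56 in WT samples. None of 19 epithelial markers passed either (1 at an unadjusted p under 0.05, 0 with the block). Beside both lists, 2.18% of all genes passed limma and 8.35% passed with the block. At an unadjusted p under 0.05, 9.44% of all genes were higher and 6.56% lower. Krt14 averaged 6.60 ± 0.07 in KrP and 6.96 ± 0.56 in WT samples, with WT 2 at 7.59. WT 2 also had the highest mean level of endothelial (6.79), blood cell (6.39) and Schwann cell and melanocyte markers (6.50), and it had the highest Actg2, Cnn1, Tpm1, Des and Lmod1; the part of other cells in these was not tested. Without WT 2, the log2 fold change of Actg2 was 0.49 and none of the 10 contractile genes passed.

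**Figure D5:**
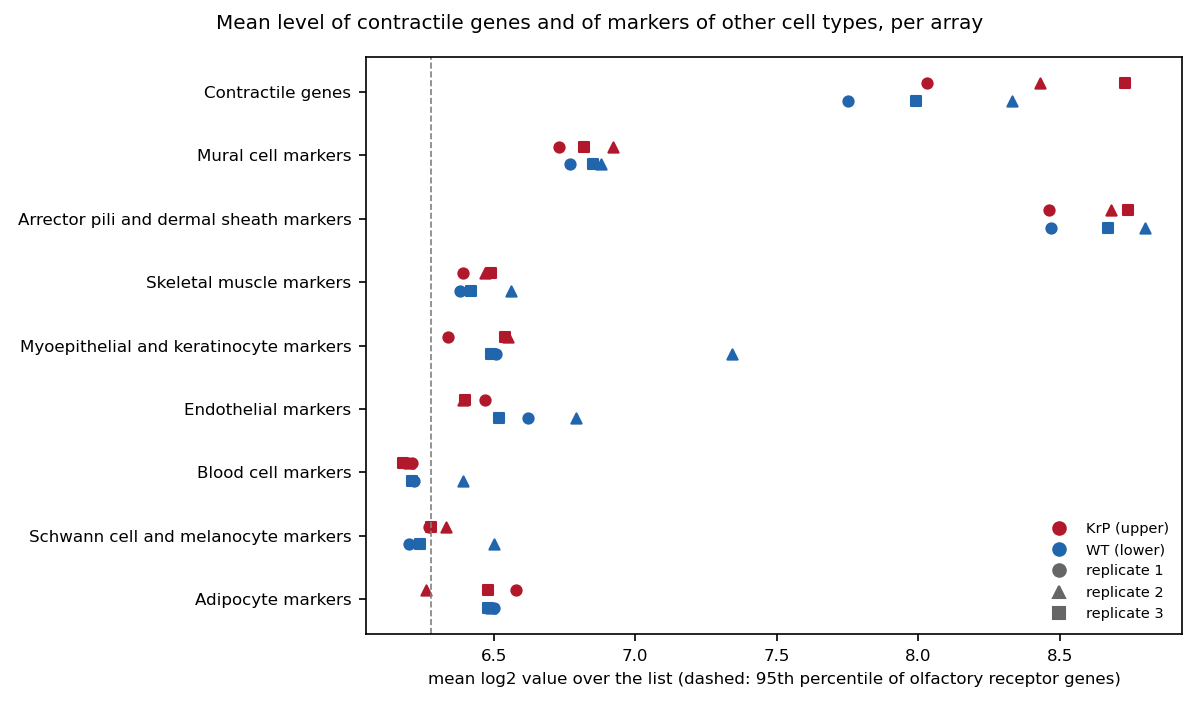
Mean log2 value over each marker list (horizontal axis) in each KrP sample (red, upper row) and WT sample (blue, lower row), with marker shapes for replicates 1 to 3 and a dashed line at the olfactory receptor guide of 6.28. The mean over the 10 contractile genes lies between 7.75 and 8.73, mural cell markers stay between 6.73 and 6.92, and WT 2 stands out for epithelial markers at 7.34.

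Of 15 endothelial markers 0 rose and 2 fell, where 1.15% and 1.03% of all genes did. With the block 0 rose and 4 fell, where 5.33% and 3.02% did. Unadjusted, 1 was higher and 4 lower at p under 0.05, where 9.44% and 6.56% were. All KrP samples lay below all WT samples for 6 of the 15, against 8.93% of all genes. The 2 that fell without the block were Cldn5, a tight junction protein (log2 fold change -0.95 ± 0.13, adjusted p = 0.013), and Tek, the angiopoietin receptor (-0.76 ± 0.14, adjusted p = 0.0386). The KrP means, 5.76 for Tek and 6.21 for Cldn5, lay below the guide, so both differences are set against background levels. The call of Cldn5 ended without KrP 3 or WT 3 (adjusted p 0.0629 to 0.0967), and that of Tek whichever of the 6 samples was left out (0.0524 to 0.125). Of 20 blood cell markers 1 rose and 0 fell, where 1.15% and 1.03% of all genes did (unadjusted, 1 higher and 2 lower; blocked, 2 rose and 1 fell). The log2 fold change was positive for 4 of the 20, with a median of -0.11, and 13 lay at or below the guide. The riser was Csf1r, the receptor of a macrophage growth factor (0.73 ± 0.13, adjusted p = 0.0347). Its call ended without KrP 1, KrP 3, WT 1 or WT 3 (adjusted p from 0.0772 to 0.196) and with quantile normalisation (0.0604). None of 12 Schwann cell and melanocyte markers or of 9 adipocyte markers passed limma (1 higher and 1 lower, and 0, at an unadjusted p under 0.05; 0 with the block). Of 16 pan-fibroblast markers 0 passed (limma; unadjusted, 8 were higher and 1 lower at p under 0.05; blocked, 5 rose), where 9.44% and 6.56% of all genes were higher and lower unadjusted and 5.33% rose with the block. Their median log2 fold change was 0.33, beside 0.26 for the contractile genes and 0.0067 over all genes, and its part in the contractile values was not tested.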

How the data were processed

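Expression was measured in 6 samples, 3 KrP and 3 WT, with 1 array each. The deposited table holds log2 values per probe set. Per the submitters' processing notes, the authors used RMA and Partek, with no version stated. The genome build is not given in the sources used here. Per the labels' protocols, 100 ng of RNA was labelled per sample. The descriptions of KrP 2 and 3 name another keratin than K14; their genotype labels were used.

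Of 34390 probe sets, 23521 carried 1 gene symbol, 1814 several and 9055 none in the platform annotation; names were updated by gene ID through a RefSeq table (GRCm38.p6) for 23328. The probe set with the highest mean represented a gene. KrP and WT were compared over 22180 genes with limma 3.58.1 in R 4.3.3 (lmFit, eBayes with trend, no filter, no block) and tested on simulated data. Arrays carry no depth; their number limits the precision. Figures were drawn with matplotlib 3.10.9.

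Deviations of same-numbered samples from their group means correlated by 0.414, 0.350 and 0.120, and those of differently numbered samples by -0.385 to 0.067. The numbers were therefore read as pairing the samples, most weakly for those numbered 3. The labels give only the numbers. The members and lists were chosen with earlier results of these data known. The text names the 10 genes, up to 4 called genes per list and direction, a set of pathway and marker genes named whatever their result and the 8 genes most like the members' mean (highest correlation, range of at least 1). Alternatives were the block, other variance priors, array weights, filters, normalisations, averaged probe sets and each sample left out.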

Additional observations from a re-analysis of the deposited data

How the results depend on the processing

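Without the replicate block, 0 of the 10 contractile genes passed limma under no trend, a robust prior, both filters, quantile normalisation, median centring, averaged probe sets and each sample left out (0 to 0). One passed with the replicate block and 6 with array weights (Acta2, Actg2, Tagln, Myh11, Myl9 and Tpm2). Those weights gave KrP 3 a weight of 7.91 and each other sample 0.409 to 2.66, and called 6410 genes, 28.9% of all. The replicate block called 1851 of all genes. Leaving out 1 sample gave between 85 and 1116 calls over all genes. The blocked fits on 2 pairs, added after the data were seen, gave 0, 903 and 0 calls without the samples numbered 1, 2 and 3. Of the 134 further pathway genes, 4 passed, against 25 with the block, 61 with array weights, 2 without the trend, 8 with the lower 50% of genes left out, 2 with averaged probe sets, 0 to 9 with 1 sample left out, and 0, 11 and 0 in the blocked fits on 2 pairs. Over all genes, 2.18% passed in the main fit, 8.35% with the block and 28.9% with array weights. The share was 2.07% without the trend, 4.94% with the lower 50% left out and 2.18% with averaged probe sets. The direction of Acta2, Actg2, Tagln, Myh11, Myl9, Tpm1 and Tpm2 held in every alternative. Cnn1 turned to -0.0017 without KrP 2 and -0.052 without WT 1. Des turned to 0.0017 without KrP 2, 0.03 without WT 2 and 0.065 without both samples numbered 2, with the block. Lmod1 turned to 0.0022 with array weights, 0.055 without WT 2 and 0.09 without both numbered 2. Among other named genes, Srf turned to 0.097 (array weights), 0.34 (without KrP 1) and 0.093 (without WT 2), Actb to 0.05 and 0.02 (without KrP 1, without WT 2), and Actg1 to 0.027, 0.01, 0.085 and 0.015 (array weights, without KrP 1, without WT 2, without both numbered 2). Myh9 turned to 0.11, 0.0011, 0.17, 0.073, 0.013 and 0.08 (array weights, quantile normalisation, without KrP 1, WT 2, WT 3 and both numbered 1). With 1 sample left out, the values ran from -0.052 to 0.14 for Cnn1, -0.1 to 0.03 for Des, -0.24 to 0.055 for Lmod1, -0.54 to 0.34 for Srf, -0.1 to 0.05 for Actb, -0.17 to 0.085 for Actg1 and -0.11 to 0.17 for Myh9. The cause of these changes was not tested. Cnn1 and Lmod1, near background, have no value with the lower 50% of genes left out. Signal over background limits what can be said of both.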
